A study of Homo sapiens with 2 samples.

Results

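Heat shock proteins and the DNAJ co-chaperones that drive them were compared between 1 array labelled FOXM1 siRNA and 1 array labelled non-target siRNA. Members were the probe sets annotated with a single gene symbol of the HSPA, HSPB, HSP90, HSPD1, HSPE1, HSPH1, DNAJA, DNAJB or DNAJC type, CRYAB, or a heat shock factor. This rule, which uses no measured value, took 175 of 54675 probe sets and 75 of 19775 genes. By class these were 12 genes of the HSP70 and HSP110 type, 3 HSP90 genes, 8 small heat shock protein genes, the chaperonin genes HSPD1 and HSPE1, 4 DNAJA, 12 DNAJB and 27 DNAJC genes, and 2 heat shock factor genes. A further 5 were antisense or divergent transcripts named after a member gene.

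Molecular chaperones bind unfolded or partly folded proteins and keep them from aggregating. HSP70 proteins do so in cycles of ATP hydrolysis that J-domain (DNAJ) proteins start and nucleotide exchange factors, among them the HSP110 proteins, reset. HSP90 proteins act later on selected clients, small heat shock proteins hold clients without ATP, and the HSPD1 and HSPE1 chaperonin folds proteins inside mitochondria. Under proteotoxic stress the factor HSF1 activates the cytosolic genes through heat shock elements, while the unfolded protein response activates those of the endoplasmic reticulum (ER).

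Both samples were labelled as U87, an established human glioblastoma line. The cells were grown at 37 degrees C in DMEM with 10% serum, and the study states no heat treatment. In the sample labelled FOXM1 siRNA they were transiently transfected, with a lipid reagent, with an siRNA directed at FOXM1, which encodes a forkhead factor of dividing cells. In the sample labelled non-target siRNA they received a control siRNA. RNA was taken 48 hours later. With 1 array per group there was no SD between samples and no test, so each value below compares these 2 arrays as labelled. In bulk RNA, fewer cells with a transcript and less of it per cell cannot be told apart.

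The labels were checked first. FOXM1 itself read 1343 on the array labelled FOXM1 siRNA and 1520 on the array labelled non-target siRNA, a log2 difference of -0.18. The 9p21 genes CDKN2A and MTAP, which U87 cells are known to lack, read 421 and 76.3 under the FOXM1 siRNA label, against 3467 and 619 under the non-target siRNA label. CDKN2B, deleted with them, read 31.8 (FOXM1 siRNA) against 350 (non-target siRNA). The signals of all 3 genes on the array labelled non-target siRNA go against its cell line label. On the array labelled FOXM1 siRNA the CDKN2A signal, above the floor, goes against that label too, while MTAP and CDKN2B lay below the floor. An effect of the siRNA and a difference between the cells cannot be told apart. Of 8 measured genes chosen as markers of the labelled line, 8 and 7 lay above the floor on the arrays labelled FOXM1 and non-target siRNA, with summed signals of 196681 and 42164, and 7 differed by 2-fold or more, each in favour of FOXM1 siRNA. Of 5 astrocyte markers 2 and 3 lay above the floor on the arrays labelled FOXM1 and non-target siRNA, and GFAP lay below it on both. Of 4 neuronal markers 2 did so on each array, with summed signals of 2329 and 592, and SNAP25 was higher past 2-fold. Of 6 epithelial markers, 4 lay above the floor on each array, with summed signals of 1104 and 12763, and KRT18 (380 for FOXM1 siRNA against 2655 for non-target siRNA) and DSP (336 for FOXM1 siRNA against 9707 for non-target siRNA) were lower past 2-fold and carried most of that sum. KRT8 read 265 for FOXM1 siRNA against 220 for non-target siRNA, EPCAM 98.8 for FOXM1 siRNA against 48.1 for non-target siRNA, and CDH1 20.9 for FOXM1 siRNA against 113 for non-target siRNA. The ACTB control probe sets gave 3' to 5' ratios of 4.21 (FOXM1 siRNA label) and 6.79 (non-target siRNA label). Those of GAPDH gave 1.095 (FOXM1 siRNA label) and 1.264 (non-target siRNA label). The part of these differences in any result below was not tested.

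Signals are MAS5 intensities on a linear scale. The floor, an estimate of the signal without a transcript taken from olfactory receptor genes, was 77.7 and 60.8 under the FOXM1 and non-target siRNA labels. A gene was represented by its brightest probe set and counted as detected above the floor on at least 1 array, and 64 of the 75 member genes were detected, 59 of them on both arrays. Each signal is named by the label of its array, and log2 differences are FOXM1 siRNA minus non-target siRNA. Hybridisation controls, meant to be present in equal amounts on both arrays, had a median log2 difference of 0.30. Values with these controls set equal are given where that matters. The error within the arrays came from pairs of probe sets of 1 gene, which gave an SD of 0.46 per probe set over 5476 genes. It was 0.29 where the dimmer probe set of the pair averaged over 1000 and 0.62 where it averaged under 200, so bright members are known more precisely. Over 42 member genes it was 0.44.

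Most of the chaperone network differed by less than 2-fold, and the small heat shock protein genes had the highest class median. Of 64 detected member genes, 17 (26.6%) differed by 2-fold or more, where 31.4% of all 13865 detected genes did. Higher under the FOXM1 siRNA label were 11 of these, or 17.2%, where 16.0% of all detected genes were, and lower were 6, or 9.38%, where 15.4% of all detected genes were. The shares of the members thus lay near the background on the higher side and under it on the lower side. With the hybridisation controls set equal, the split was 7 higher and 10 lower, and the background shares were 11.3% and 23.1%. The median log2 difference of the members was 0.24, against 0.01 over all detected genes, and -0.07 against -0.29 with the hybridisation controls set equal. Just inside the 2-fold threshold were DNAJB14 (1.05) and DNAJC28 (-1.11), and just outside it DNAJC5 (0.97), DNAJB1 (0.94) and HSPA6 (0.91).

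**Figure D1:**
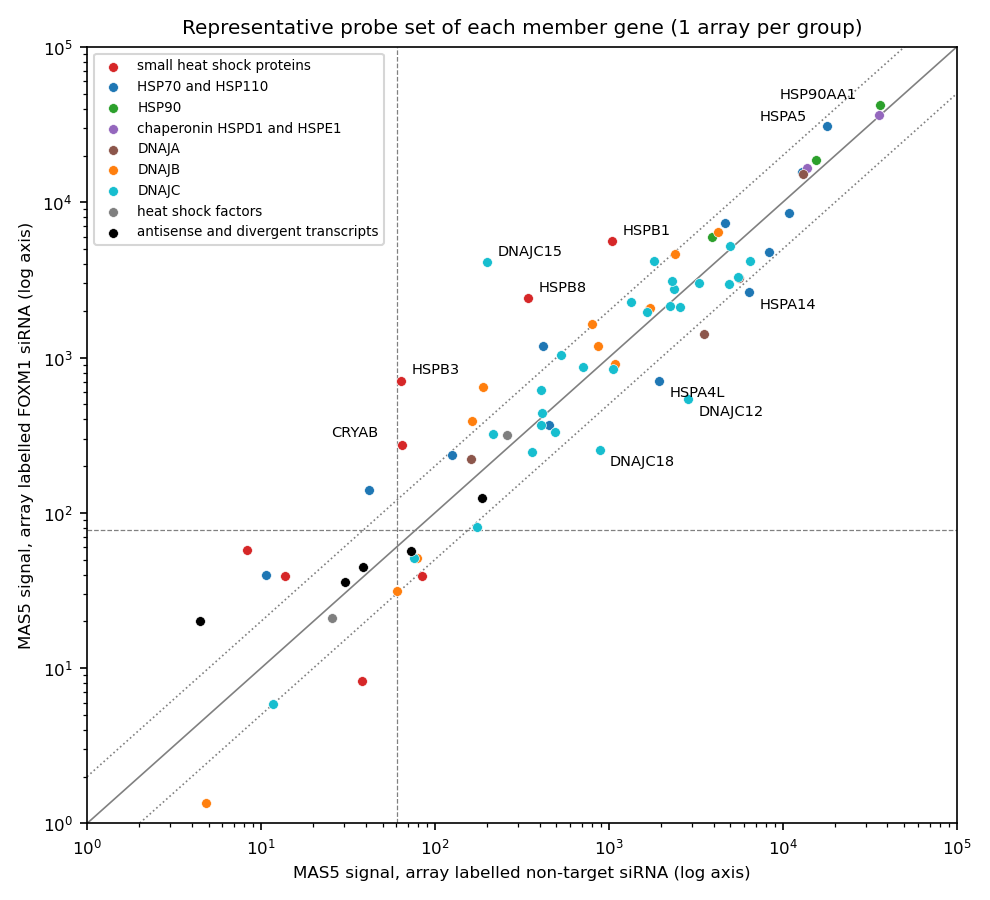
Signals of the representative probe set of each of 75 member genes, with the array labelled FOXM1 siRNA on the vertical axis and that labelled non-target siRNA on the horizontal axis (MAS5 intensity, log axes). The solid line marks equal signals, dotted lines mark a 2-fold difference and dashed lines the floors of 77.7 and 60.8. HSPB1, HSPB3, HSPB8, CRYAB and DNAJC15 lie above the dotted band, DNAJC12 and DNAJC18 below it, and HSP90AA1 and HSPD1 lie near the solid line.

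Among the small heat shock proteins, all 4 genes above both floors had 4.21 to 11.1 times the signal under the FOXM1 siRNA label, where 15.3% of all genes above both floors were higher past 2-fold. HSPB1 (HSP27), an abundant chaperone that also binds the actin cytoskeleton, read 5617 under the FOXM1 siRNA label and 1049 under the non-target siRNA label, a 5.35-fold difference. HSPB8, which works with BAG3 to hand misfolded proteins to autophagy, read 2425 (FOXM1 siRNA) against 345 (non-target siRNA), 7.03-fold higher, and its other probe set read 200 (FOXM1 siRNA) against 72.4 (non-target siRNA) (log2 difference 1.47). HSPB3, best known from muscle, read 709 (FOXM1 siRNA) against 64.1 (non-target siRNA), and CRYAB (alpha-B-crystallin), a lens and glial chaperone, read 272 (FOXM1 siRNA) against 64.5 (non-target siRNA). The signals of HSPB3 and CRYAB on the array labelled non-target siRNA lay close to its floor of 60.8, so that their ratios of 11.1 and 4.21 depend on it. With a floor 2 times as high, their log2 differences were 2.54 and 1.16 in place of 3.47 and 2.07.

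HSPB1, HSPB3 and CRYAB had 1 probe set each, so no second measurement of these genes was at hand. None of the remaining small heat shock protein genes lay above both floors. HSPB2, HSPB6 and HSPB7, known mainly from heart and muscle, lay below the floor on both arrays, so no difference can be given for them. The HSPB2 gene lies next to CRYAB. HSPB9, a testis gene, read 39.2 (FOXM1 siRNA) against 84.1 (non-target siRNA) and passed the floor under the non-target siRNA label alone, a difference of at least 1.08-fold in the lower direction. Over the 5 detected members the median log2 difference of the class was 2.42, and 2.12 with the hybridisation controls set equal. Of all detected genes, 1.59% were at least as high as HSPB3 on this scale, 3.12% as HSPB8, 4.33% as HSPB1 and 5.76% as CRYAB. The 8 genes chosen as markers of the labelled line were higher too, with summed signals of 196681 and 42164 on the arrays labelled FOXM1 and non-target siRNA, and their part in the result was not tested.

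The promoters of 3 of these genes are shown because the genes were higher together, as 250 bases before and 50 after the annotated start, credited to RefSeq (GRCh38.p14), 5′ to 3′ on the strand of the gene. Capitals mark paired heat shock elements, matches to GAANNTTC or TTCNNGAA, which each read the same on both strands. HSPB1 lies at chr7:76302423-76302722, plus strand, HSPB8 at chr12:119178681-119178980, plus strand and HSPB3 at chr5:54455449-54455748, plus strand. No promoter of CRYAB is shown, because the promoter sequences at hand held none for this gene.
HSPB1: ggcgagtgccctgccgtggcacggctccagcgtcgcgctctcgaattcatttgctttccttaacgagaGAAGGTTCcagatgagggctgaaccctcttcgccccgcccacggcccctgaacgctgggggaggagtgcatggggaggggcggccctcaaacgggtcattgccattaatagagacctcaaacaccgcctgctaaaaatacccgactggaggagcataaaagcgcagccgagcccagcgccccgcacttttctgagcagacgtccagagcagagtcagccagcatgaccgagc
HSPB8: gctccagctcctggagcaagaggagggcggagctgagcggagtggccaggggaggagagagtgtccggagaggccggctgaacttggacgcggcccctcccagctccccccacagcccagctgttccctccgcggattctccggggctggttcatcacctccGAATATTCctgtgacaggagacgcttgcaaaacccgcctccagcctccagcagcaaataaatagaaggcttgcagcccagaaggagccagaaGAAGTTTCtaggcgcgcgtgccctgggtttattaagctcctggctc
HSPB3: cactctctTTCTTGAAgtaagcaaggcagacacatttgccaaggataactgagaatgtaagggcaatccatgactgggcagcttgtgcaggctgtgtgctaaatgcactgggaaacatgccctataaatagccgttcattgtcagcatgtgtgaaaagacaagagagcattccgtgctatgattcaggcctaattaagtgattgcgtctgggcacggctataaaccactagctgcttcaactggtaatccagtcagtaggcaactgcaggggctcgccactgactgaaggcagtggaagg
HSPB1 and HSPB3 held 1 match each and HSPB8 held 2, at positions -182, -242, -88 and 4, with the annotated start counted as 0. None of the 3 held the three-unit form.

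Of 11 detected HSP70 and HSP110 genes, 4 passed 2-fold, 2 in each direction, a share near the 31.4% of all detected genes that did. The median log2 difference was 0.28, or -0.02 with the hybridisation controls set equal. Over the 10 genes above both floors, which leave out HSPA1L, it was -0.007, with 5 above 0 and 5 below. The 3 HSP110 exchange factor genes and the ribosome-bound HSPA14 lay below 0, as did HSPA12A. HSPA4L, an HSP110 gene, read 709 on the array labelled FOXM1 siRNA and 1954 on the array labelled non-target siRNA, 2.76-fold lower, and its other probe set read 834 (FOXM1 siRNA) against 1222 (non-target siRNA). HSPA4 (APG-2) read 4750 (FOXM1 siRNA) against 8359 (non-target siRNA), a log2 difference of -0.82. Of its 4 probe sets, 3 gave -0.85 to -0.81 and the fourth 0.38. HSPH1 (HSP105) read 8583 (FOXM1 siRNA) against 10803 (non-target siRNA), and its 3 probe sets gave -0.33, -0.55 and -0.89. All 3 HSP110 members were thus lower in their brightest probe set, HSPA4L beyond 2-fold, where 5875 of 11395 genes above both floors lay below 0.

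HSPA14, which binds ribosomes, read 2633 (FOXM1 siRNA) against 6418 (non-target siRNA) and was 2.44-fold lower, with log2 differences of -1.29, -0.99 and -0.65 in its 3 probe sets. DNAJC2, its J-domain partner in the ribosome-associated complex, read 3323 (FOXM1 siRNA) against 5547 (non-target siRNA), a log2 difference of -0.74. Both partners were therefore lower, DNAJC2 by less than 2-fold.

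HSPA2 and HSPA1L were the members of the class higher past 2-fold. HSPA2, a germ cell HSP70, read 1179 on the array labelled FOXM1 siRNA and 419 on the array labelled non-target siRNA, 2.82-fold higher in its only probe set. HSPA1L, also of the testis, read 140 (FOXM1 siRNA) against 42.0 (non-target siRNA), the lower value being below its floor, and so was at least 2.30-fold higher. HSPA6, an HSP70 made almost only under stress, read 236 (FOXM1 siRNA) against 125 (non-target siRNA) and 170 (FOXM1 siRNA) against 84.9 (non-target siRNA) in its 2 probe sets. These signals are dim, and the log2 difference of the brighter probe set was 0.91. The mitochondrial HSP70 gene HSPA9 read 15686 (FOXM1 siRNA) against 12885 (non-target siRNA), a log2 difference of 0.28, or -0.02 with the hybridisation controls set equal. The atypical HSPA12A read 369 (FOXM1 siRNA) against 454 (non-target siRNA), a log2 difference of -0.30, and HSPA12B lay below both floors.

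The cytosolic HSP90 genes and the chaperonin genes, whose signals were high on both arrays, were nearly level. HSP90AA1, the stress-inducible cytosolic HSP90, read 42467 on the array labelled FOXM1 siRNA and 36189 on the array labelled non-target siRNA. Its 4 probe sets gave log2 differences of 0.23 to 0.28 with an SD of 0.03. HSP90AB1, the constitutive form, read 18628 (FOXM1 siRNA) against 15571 (non-target siRNA), a log2 difference of 0.26. HSPD1 and HSPE1 form the mitochondrial chaperonin. HSPD1 read 36638 (FOXM1 siRNA) against 35930 (non-target siRNA), a log2 difference of 0.03. HSPE1 read 16510 (FOXM1 siRNA) against 13852 (non-target siRNA), a log2 difference of 0.25. With the hybridisation controls set equal the differences of HSP90AA1, HSP90AB1, HSPD1 and HSPE1 turned sign, to -0.07, -0.04, -0.28 and -0.05, so no direction is given for them. Further probe sets of HSPD1 above both floors gave -0.55 and -0.65. DNAJA1, the main cytosolic J-domain partner of HSP70, was similarly level at 15289 (FOXM1 siRNA) against 13141 (non-target siRNA), a log2 difference of 0.22, or -0.08 with the hybridisation controls set equal.

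**Figure D2:**
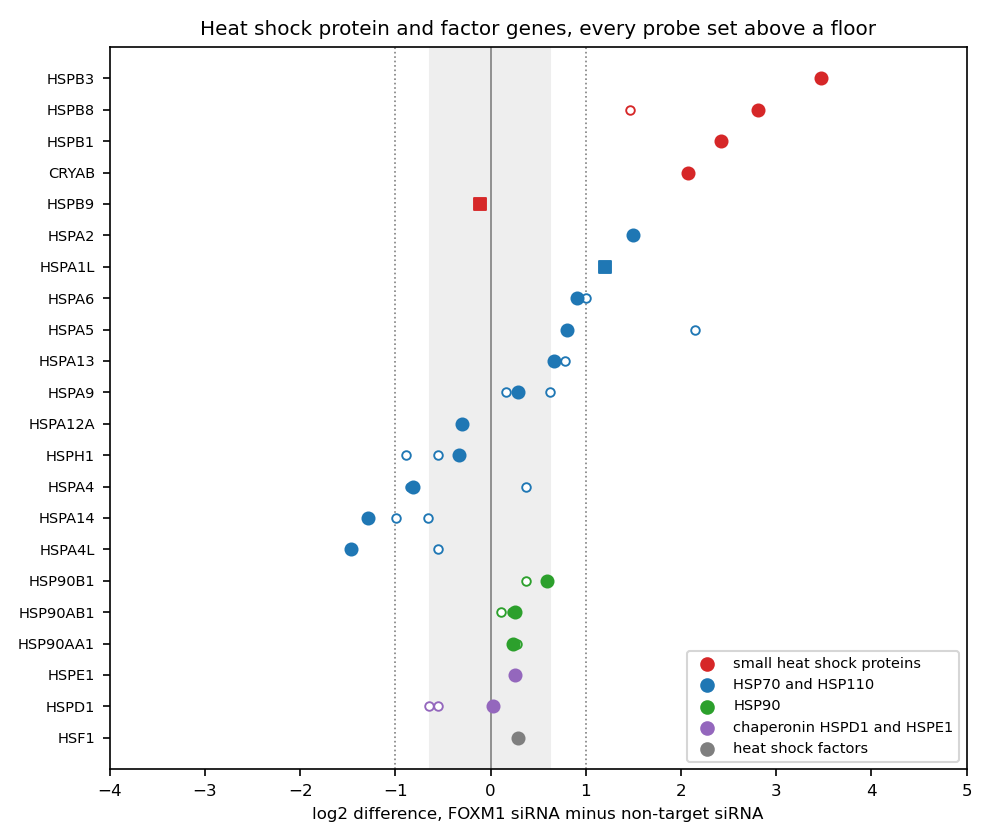
Log2 difference (FOXM1 siRNA minus non-target siRNA) of every probe set above a floor for the detected heat shock protein and factor genes. Filled symbols are the representative probe set, open symbols the others, circles lie above both floors and squares above 1 floor, with the other array at its floor. Dotted lines mark 2-fold, and the grey band holds the middle of all detected genes (25th to 75th percentile, -0.64 to 0.62). HSPB3, HSPB8, HSPB1 and CRYAB lie right of 2 on the log2 scale, while the HSP90 genes lie within the band.

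Of 12 measured ER members, 9 lay above 0 and 3 below (median 0.44), where 5520 of 11395 genes above both floors lay above 0. With the hybridisation controls set equal 6 lay on each side (median 0.14), where 4009 of 11395 genes lay above 0 (median -0.34). Of 7 members known to be induced by the unfolded protein response, 6 lay above 0 and 1 below. Of these 7, 1 was at least 2-fold higher and none lower, where 16.0% and 15.4% of all detected genes were. Their median log2 difference was 0.60, against 0.01 over all detected genes. With the hybridisation controls set equal, 5 of the 7 lay above 0 and 2 below, with a median of 0.30. HSPA5 (BiP), the ER HSP70, read 31167 on the array labelled FOXM1 siRNA and 17862 on the array labelled non-target siRNA, a log2 difference of 0.80, and 2.14 in a dimmer probe set. DNAJC3 (P58IPK), a BiP partner, read 4183 (FOXM1 siRNA) against 1823 (non-target siRNA) and was 2.29-fold higher, with log2 differences down to 0.31 over its 4 probe sets. HSPA13, a truncated microsomal HSP70, read 7352 (FOXM1 siRNA) against 4636 (non-target siRNA), a log2 difference of 0.67, and its other probe set gave 0.78. DNAJB11 (ERdj3) read 6473 (FOXM1 siRNA) against 4270 (non-target siRNA), a log2 difference of 0.60. HSP90B1 (GRP94), the ER form of HSP90, read 5956 (FOXM1 siRNA) against 3936 (non-target siRNA), a log2 difference of 0.60, and its other member probe set gave 0.37. Brighter probe sets, annotated jointly to HSP90B1 and the microRNA gene MIR3652, were not members. They read 20737 (FOXM1 siRNA) against 17074 (non-target siRNA) and 9143 (FOXM1 siRNA) against 5328 (non-target siRNA), log2 differences of 0.28 and 0.78. The 0.28 lay under the 0.30 of the hybridisation controls. DNAJB9 (ERdj4) read 2082 (FOXM1 siRNA) against 1734 (non-target siRNA), a log2 difference of 0.26. DNAJC10 (ERdj5), a disulfide reductase, read 3015 (FOXM1 siRNA) against 3282 (non-target siRNA), a log2 difference of -0.12. With the hybridisation controls set equal the representative probe sets of HSPA5, DNAJC3, HSPA13, DNAJB11 and HSP90B1 remained above 0, at 0.50, 0.90, 0.36, 0.30 and 0.29. That of DNAJB9 was at -0.04.

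Among ER membrane J-domain genes DNAJB14 read 1657 (FOXM1 siRNA) against 800 (non-target siRNA), a 2.07-fold difference, and its other probe sets gave 0.77 and 0.80. DNAJC18 went the other way in its brightest probe set, with 255 (FOXM1 siRNA) against 886 (non-target siRNA), 3.48-fold lower. Its other probe sets gave 0.55 and -0.46, so the probe sets of DNAJC18 disagree in direction. DNAJB12 likewise ran from -0.999 to 1.37 over 4 probe sets.

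The HSPA5 promoter is shown for an ER stress element, a type of site through which the unfolded protein response acts. Capitals mark the exact match (CCAAT and CCACG with 9 free bases between them, searched on both strands), and near matches are not marked. The promoter lies at chr9:125241294-125241593, minus strand, and the match starts at position -66. The HSP90AA1 promoter, chr14:102086995-102087294, minus strand, is shown beside it for its heat shock elements, since this gene was nearly level. Of 2 HSP90AA1 entries this is the 1 that holds a match.
HSPA5: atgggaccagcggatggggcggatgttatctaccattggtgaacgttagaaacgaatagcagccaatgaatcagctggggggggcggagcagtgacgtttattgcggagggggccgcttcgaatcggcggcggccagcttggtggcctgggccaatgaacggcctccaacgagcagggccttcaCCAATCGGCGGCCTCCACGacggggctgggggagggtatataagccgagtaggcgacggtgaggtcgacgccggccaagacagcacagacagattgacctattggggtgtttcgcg
HSP90AA1: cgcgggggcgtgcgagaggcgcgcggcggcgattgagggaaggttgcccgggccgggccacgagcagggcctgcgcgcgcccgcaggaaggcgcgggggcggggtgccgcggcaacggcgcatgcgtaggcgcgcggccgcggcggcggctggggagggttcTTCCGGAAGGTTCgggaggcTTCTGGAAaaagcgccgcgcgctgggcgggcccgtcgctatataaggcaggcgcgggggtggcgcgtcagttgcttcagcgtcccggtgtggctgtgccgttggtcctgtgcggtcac
In HSP90AA1 the capitals cover 3 paired elements, and the first 2 overlap and form the three-unit element at position -88.

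The largest difference of any member was that of DNAJC15. DNAJC15 (MCJ) is a J-domain protein of the mitochondrial inner membrane that restrains complex I of the respiratory chain, and its gene is known to be silenced by promoter methylation in some tumours. It read 4138 on the array labelled FOXM1 siRNA and 200.3 on the array labelled non-target siRNA, 20.7-fold higher. Its second probe set read 566 (FOXM1 siRNA) against 65.8 (non-target siRNA), a log2 difference of 3.10, and the third read 213 (FOXM1 siRNA) against 32.0 (non-target siRNA), the lower value below its floor, at least 1.81 on the log2 scale. Only 0.274% of detected genes were at least as high. DNAJC19 (TIM14), its paralog in the protein import motor, read 2126 (FOXM1 siRNA) against 2579 (non-target siRNA), a log2 difference of -0.28. The DNAJC15 promoter (chr13:43023336-43023635, plus strand) is shown because of this difference, and its 1 paired heat shock element, in capitals, starts at position -189.
DNAJC15: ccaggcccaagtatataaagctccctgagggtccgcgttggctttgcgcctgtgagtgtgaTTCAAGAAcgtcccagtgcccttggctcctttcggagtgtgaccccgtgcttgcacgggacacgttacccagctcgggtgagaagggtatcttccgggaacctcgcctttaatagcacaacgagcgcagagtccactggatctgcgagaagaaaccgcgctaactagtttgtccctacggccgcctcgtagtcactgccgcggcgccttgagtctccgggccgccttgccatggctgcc

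DNAJC12 had the largest difference in the lower direction, in all 3 of its probe sets. This cytosolic co-chaperone of the aromatic amino acid hydroxylases read 539 on the array labelled FOXM1 siRNA and 2844 on the array labelled non-target siRNA, 5.28-fold lower. The other probe sets read 138 (FOXM1 siRNA) against 1343 (non-target siRNA) and 139 (FOXM1 siRNA) against 562 (non-target siRNA), log2 differences of -3.29 and -2.02. Of all detected genes, 2.43% were at least as low.

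Over the 26 detected DNAJC genes, 2 were at least 2-fold higher, 3 lower and 21 under 2-fold, beside 16.0% higher and 15.4% lower over all detected genes, with a median of -0.01, or -0.31 with the hybridisation controls set equal. DNAJC28 read 80.9 (FOXM1 siRNA) against 175 (non-target siRNA), 2.16-fold lower, close to the floor, and was under 2-fold with a floor 2 times as high. The 3 genes of vesicles above both floors lay above 0, where 5520 of 11395 such genes in all did. DNAJC5, the cysteine string protein of secretory vesicles, read 1035 (FOXM1 siRNA) against 528 (non-target siRNA), a log2 difference of 0.97, and its other probe sets gave 1.06 and 0.67. DNAJC13, which acts on endosomes, read 2293 (FOXM1 siRNA) against 1338 (non-target siRNA), a log2 difference of 0.78. DNAJC6 (auxilin), which uncoats clathrin vesicles, read 1968 (FOXM1 siRNA) against 1666 (non-target siRNA), a log2 difference of 0.24, or -0.06 with the hybridisation controls set equal.

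Of 5 DNAJC genes of the nucleus and ribosome, 4 lay below 0 and none reached 2-fold, with a median of -0.56. Among all 13865 detected genes, 31.4% differed by 2-fold or more. The list of 5 was chosen with results of these arrays known. Of 11395 genes above both floors, 5875 lay below 0. Under the other scalings 3 to 5 of the 5 lay below 0, beside 5661 to 7386 of the 11395. Besides DNAJC2, the spliceosome-associated DNAJC8 read 4157 (FOXM1 siRNA) against 6522 (non-target siRNA), a log2 difference of -0.65, with -0.70 and -0.43 in its other probe sets, and DNAJC17, also linked to splicing, read 334 (FOXM1 siRNA) against 492 (non-target siRNA), a log2 difference of -0.56. DNAJC21, which acts in ribosome assembly, and the histone chaperone gene DNAJC9 were nearly level, at -0.06 and 0.07. DNAJC7, which bridges HSP70 and HSP90, read 2978 (FOXM1 siRNA) against 4897 (non-target siRNA), a log2 difference of -0.72. The other DNAJC genes above both floors, under 2-fold, ranged down to -0.54 (DNAJC27) and up to 0.60 (DNAJC11). DNAJC5B read 51.2 (FOXM1 siRNA) against 75.5 (non-target siRNA), for which no fold is given, and DNAJC5G lay below both floors.

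Of 10 detected DNAJB genes, 3 were higher past 2-fold and none lower, where 16.0% of all detected genes were higher and 15.4% lower. Above 0 lay 8 of the 9 DNAJB genes above both floors, beside 5520 of 11395 such genes in all. With the hybridisation controls set equal it was 6 of 9, beside 4009 of 11395. The median of the 10 was 0.52, and 0.22 with the hybridisation controls set equal. DNAJB5 read 648 on the array labelled FOXM1 siRNA and 189 on the array labelled non-target siRNA, 3.43-fold higher. DNAJB2 (HSJ1), which carries ubiquitinated clients to the proteasome, read 390 (FOXM1 siRNA) against 164 (non-target siRNA), 2.38-fold higher. DNAJB1 (HSP40), the main heat-inducible J-domain protein, read 4612 (FOXM1 siRNA) against 2411 (non-target siRNA) and 2307 (FOXM1 siRNA) against 1209 (non-target siRNA) in its 2 probe sets, with log2 differences of 0.94 and 0.93, just under 2-fold. DNAJB4 read 1190 (FOXM1 siRNA) against 872 (non-target siRNA), a log2 difference of 0.45. DNAJB6, a suppressor of polyglutamine aggregation, read 2062 (FOXM1 siRNA) against 1713 (non-target siRNA), a log2 difference of 0.27. DNAJB13 read 51.5 (FOXM1 siRNA) against 78.8 (non-target siRNA), and DNAJB7 and DNAJB8, known from the testis, lay below both floors.

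Of the DNAJA genes, mitochondrial DNAJA3 (TID1) read 1420 (FOXM1 siRNA) against 3530 (non-target siRNA), 2.48-fold lower, and its other probe set read 790 (FOXM1 siRNA) against 1829 (non-target siRNA), a log2 difference of -1.21. DNAJA2, cytosolic like DNAJA1, read 3252 (FOXM1 siRNA) against 5573 (non-target siRNA), a log2 difference of -0.78, but its other probe set gave -0.13. DNAJA4 read 222 (FOXM1 siRNA) against 161 (non-target siRNA), a log2 difference of 0.47. The 10 mitochondrial members as a list were spread from -1.31 (DNAJA3) to 4.37 (DNAJC15), with a median of 0.06.

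**Figure D3:**
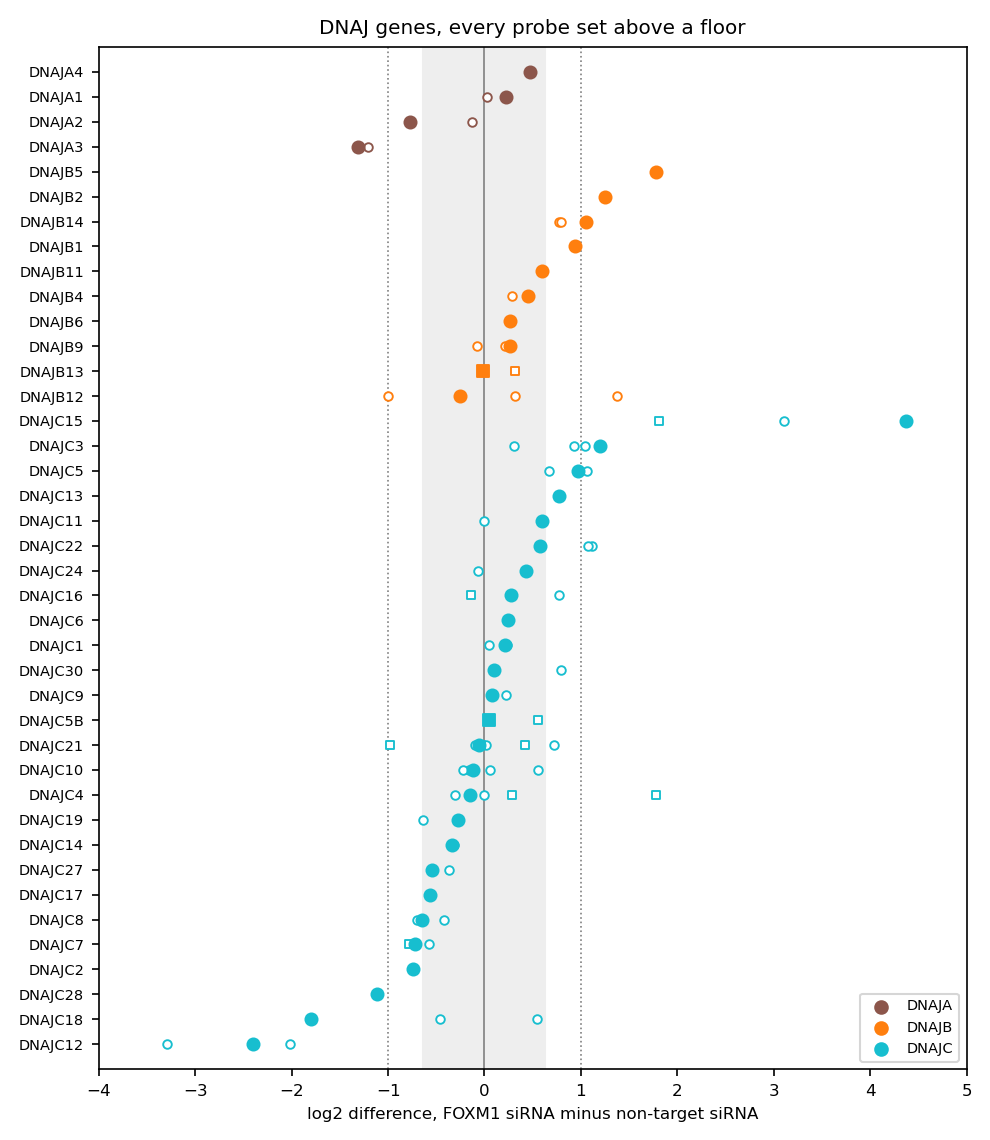
Log2 difference (FOXM1 siRNA minus non-target siRNA) of every probe set above a floor for the detected DNAJ genes, with symbols, dotted lines and grey band as for the heat shock proteins. The probe sets of DNAJC15 lie furthest right and those of DNAJC12 furthest left, and those of DNAJC18 and DNAJB12 lie on both sides of 0.

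The factors and transcripts named after members differed little. HSF1, the main heat shock factor, read 319 (FOXM1 siRNA) against 261 (non-target siRNA) in the brighter of its 2 probe sets, a log2 difference of 0.29, or -0.02 with the hybridisation controls set equal. The other probe set gave 0.27. HSF4 lay below both floors. Of 12 members known as HSF1-inducible, 2 (HSPB1 and CRYAB) were at least 2-fold higher, 1 (HSPA4L) lower and 9 under 2-fold, where 16.0% of all detected genes were higher and 15.4% lower. The stress-inducible HSPA1A and HSPA1B, whose probe sets list several genes, are not among the 12. Their bright probe sets were 2.14-fold and 3.06-fold lower under the FOXM1 siRNA label. Of the 12 members, 10 lay above 0 (median 0.26), where 5520 of 11395 genes above both floors did. With the hybridisation controls set equal 5 did (median -0.05), where 4009 of 11395 genes did (median -0.34). The divergent transcript DNAJC3-DT read 124 (FOXM1 siRNA) against 187 (non-target siRNA), a log2 difference of -0.59, while DNAJC3 itself was higher. DNAJC9-AS1 read 56.9 (FOXM1 siRNA) against 72.8 (non-target siRNA), for which no fold is given, and DNAJB8-AS1, DNAJC27-AS1 and HSPA2-AS1 lay below both floors. The array's strand cannot be checked from the files for these antisense and divergent transcripts.

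Of 4 lists of partner genes, 3 had medians below 0. Of 10 nucleotide exchange factors for HSP70, 1 was at least 2-fold higher and 1 lower, and the median was -0.61. BAG3, the partner of HSPB8, read 7487 on the array labelled FOXM1 siRNA and 3434 on the array labelled non-target siRNA, 2.18-fold higher, whereas BAG1, which links HSP70 to the proteasome, read 648 (FOXM1 siRNA) against 1515 (non-target siRNA), 2.34-fold lower. Of 12 measured HSP90 co-chaperones, 2 passed 2-fold, both in the lower direction (median -0.51). FKBP5, an immunophilin of steroid receptor complexes, read 526 (FOXM1 siRNA) against 3056 (non-target siRNA), 5.81-fold lower. CHORDC1, a co-chaperone with zinc-binding domains, read 3566 (FOXM1 siRNA) against 10013 (non-target siRNA), 2.81-fold lower. All 7 measured subunits of the cytosolic chaperonin TRiC lay below 0 under each scaling tried, where 5661 to 7386 of 11395 genes above both floors did. On the deposited scaling the TRiC subunits ran from -0.19 to -0.86, none by 2-fold, with a median of -0.52. With the hybridisation controls set equal the lowest was -1.16, and the median of all genes above both floors was -0.34. Of 5 prefoldin subunits VBP1 alone reached 2-fold, with 7475 (FOXM1 siRNA) against 15938 (non-target siRNA), 2.13-fold lower, and the median was 0.19, or -0.11 with the hybridisation controls set equal. Over all detected genes the median was 0.01, and 16.0% were at least 2-fold higher and 15.4% lower. These lists were chosen with results of these arrays known.

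**Figure D4:**
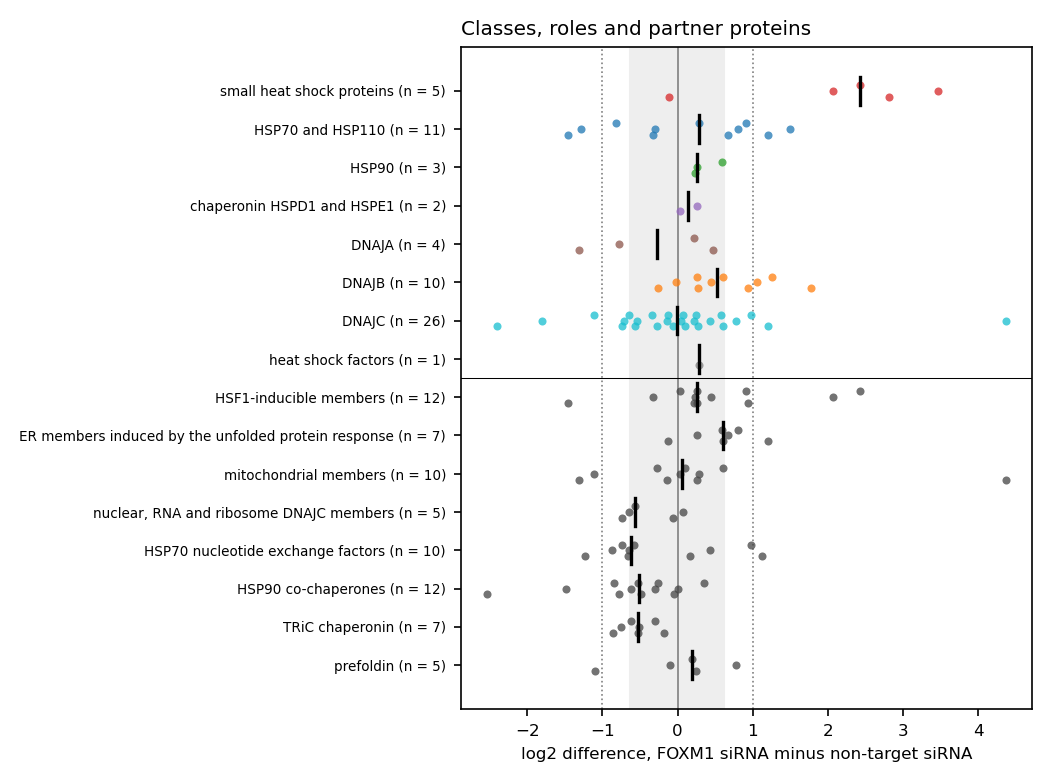
Log2 difference (FOXM1 siRNA minus non-target siRNA) of each detected gene, as points, by class of member (upper rows) and by role or partner list (lower rows), with n detected genes. Black bars are medians, the vertical line and grey band the median and the 25th to 75th percentile of all detected genes (0.01, -0.64 and 0.62), and dotted lines mark 2-fold. The small heat shock proteins have a median of 2.42, and the TRiC points all lie left of 0.

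The promoter table held 87 entries for 66 of the 75 member genes, and none for CRYAB or HSPA14. A paired heat shock element was found in 20 of these promoters, or 23.0%, and in 13.5% of all 35116 promoters. The three-unit form (3 alternating units of GAA and TTC with 2 free bases between neighbours, so that each match contains paired matches) was found in 6, or 6.9%, against 0.49% of all, and the ER stress element in 2, or 2.30%, against 0.0769% of all. The 6 genes with the three-unit form, HSP90AA1, HSP90AB1, HSPD1, DNAJA1, DNAJB6 and HSPA6, had log2 differences from 0.03 to 0.91, none of them 2-fold. Among all genes, 60 detected ones had this form in a promoter, of which 11.7% were higher and 16.7% lower past 2-fold (median 0.05). The 17 detected genes with a paired element had a median of 0.45, with 5 at least 2-fold higher and 1 lower, and the 40 detected genes without it a median of -0.09, with 5 higher and 4 lower. Over all genes, 1571 detected ones had a paired element in a promoter, of which 18.1% were higher and 15.8% lower past 2-fold (median 0.01), and of 9618 without it 14.9% were higher and 15.6% lower (median -0.02). HSPA5 and HSP90B1, the genes with an ER stress element, had differences of 0.80 and 0.60. These matches describe letters in a window and were not tested as sites.

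**Figure D5:**
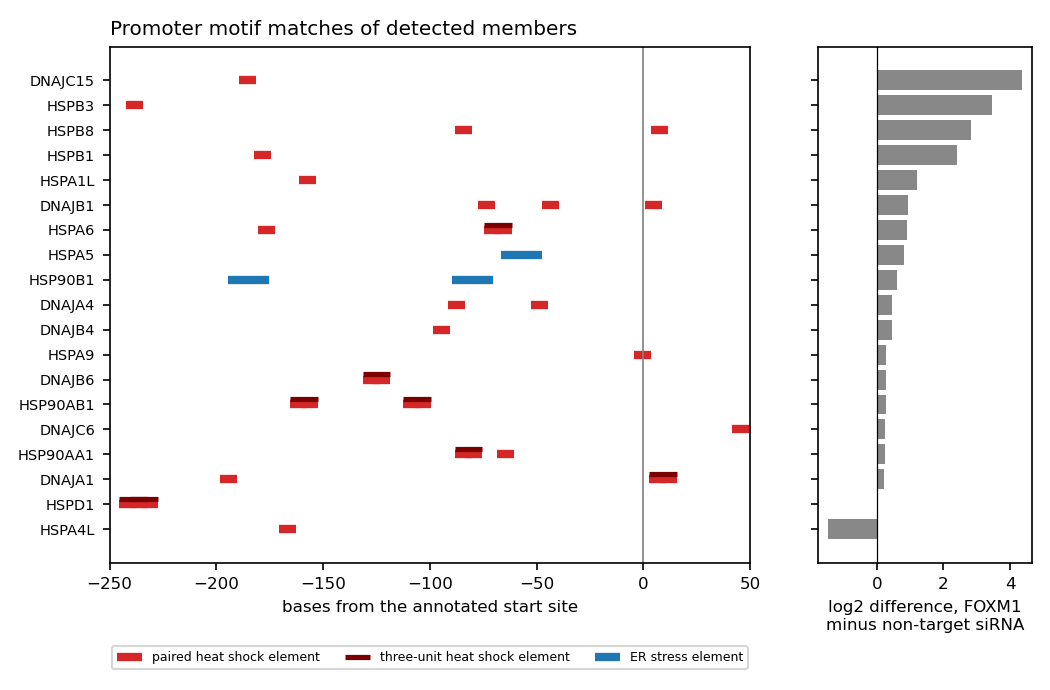
Left, positions of paired and three-unit heat shock elements and ER stress elements in bases from the annotated start site, over 250 bases before to 50 after it, for detected members with a match (all entries of a gene drawn in 1 row). Right, log2 difference (FOXM1 siRNA minus non-target siRNA) of the same gene. Rows run from DNAJC15 (4.37) at the top to HSPA4L (-1.46) at the bottom, and genes with the three-unit element lie below 1.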

How the data were processed

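Both samples were measured on 1 Affymetrix expression array each. The deposited intensities, 1 linear value per probe set, were made with MAS5, per the submitters' processing notes. Its version is not given in the sources consulted. With the extreme 2% left out on each side, both arrays had a mean of 500.07, so each had been scaled as a whole. Probe sets were named by the platform annotation (41097 with 1 symbol, 1801 with several, 11777 not listed), and symbols other than the members' were updated through gene IDs (99.87% matched, GRCh38.p14). Probe sets with several symbols name no gene.

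The floor was the 90th percentile of 135 olfactory receptor probe sets on each array. Lower signals were raised to it before log2. A gene above the floor on 1 array has a bound, written "at least", and none is given where the bound is under 1. Counts use a 2-fold threshold. With 1 array per group no test was run and the number of arrays limits the precision. All members are accounted for; those past 2-fold are named with both signals, and partner genes by the same threshold. Members and lists were chosen with earlier results of these data known. The calculation was checked on simulated data. Alternatives were median, quantile and loess scaling (limma 3.58.1, R 4.3.3, span 0.3), 18 hybridisation controls set equal, other floors, a pseudocount of 50, other probe set rules and a 1.5-fold threshold. Other steps used Python 3.11.15, numpy 2.4.6 and pandas 2.3.3.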

Additional observations from a re-analysis of the deposited data

How the results depend on the processing

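No paired analysis was possible because each group holds 1 array. Alternatives were tried on the 2 member counts, the member median, 8 class medians and 17 genes past 2-fold, the 1.5-fold threshold on the counts only. HSPB1, HSPB3, HSPA2 and DNAJA3 have no value without _x_at and _s_at probe sets, and HSPA1L none with a floor 2 times as high or above both floors. Where a value could be had, none of the 17 changed sign. With the hybridisation controls set equal, which moved the median of all genes from 0.01 to -0.29, 7 members were at least 2-fold higher and 10 lower, in place of 11 and 6. Without _x_at and _s_at probe sets 7 were higher, the small heat shock protein median was 1.47 in place of 2.42, since HSPB1, HSPB3 and the brighter HSPB8 probe set drop out, and the chaperonin median was -0.65 in place of 0.14, since HSPE1 and the 2 bright HSPD1 probe sets drop out. At a 1.5-fold threshold 20 were higher and 12 lower, where 26.1% and 26.8% of all genes were. The member median ran from -0.07 to 0.25, the DNAJB median from 0.22 to 0.60, the DNAJC median from -0.31 to 0.07, the DNAJA median from -0.58 to 0.02, the HSP70 and HSP110 median from -0.02 to 0.50, the HSP90 median from -0.05 to 0.26 and HSF1 from -0.02 to 0.30. Class medians near 0 therefore have no settled direction. DNAJB14, DNAJB2, DNAJC3, DNAJC18, DNAJC28, HSPA14 and HSPA1L were under 2-fold in at least 1 alternative, DNAJC18 at -0.46 with the median of its probe sets. Signals near the floor limit HSPB3, CRYAB, HSPA1L and DNAJC28.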

Other observations

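Probe sets that list several genes were not members, and among these 14 were the stress-inducible HSP70 genes HSPA1A and HSPA1B, near-identical copies that the array cannot separate. The probe set annotated jointly to HSPA1A and HSPA1B read 5183 on the array labelled FOXM1 siRNA and 11071 on the array labelled non-target siRNA, 2.14-fold lower. The probe set annotated to these and HSPA1L read 3483 (FOXM1 siRNA) against 10659 (non-target siRNA), 3.06-fold lower. A dim probe set of the same pair read 104 (FOXM1 siRNA) against 14.0 (non-target siRNA), above the floor only on the array labelled FOXM1 siRNA. The bright signals thus lay lower on the array labelled FOXM1 siRNA, while those of HSPB1 and CRYAB lay higher, and DNAJB1 was 1.91-fold higher. The 4 probe sets annotated jointly to the constitutive HSPA8 and small nucleolar RNA genes read 27500 to 42270 (FOXM1 siRNA) against 19702 to 34497 (non-target siRNA), log2 differences of 0.19 to 0.48. None of these values can be assigned to a single gene.

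Probe sets of the same member did not always go the same way. Of 42 member genes with at least 2 probe sets above both floors, 33 had all of them on the same side of 0, with a median SD of 0.25 on the log2 scale. The SD was 1.18 for DNAJC18, 1.001 for DNAJB12, 0.95 for HSPA5 and 0.60 for HSPA4. Of the 9 members past 2-fold with a further probe set above both floors, 8 had all probe sets in the same direction, DNAJC18 being the exception.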
